A study of Rattus norvegicus with 6 samples.

Results

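The genes of mitochondrial oxidative phosphorylation were described on 6 arrays of arthritic rat synovial tissue, 3 without and 3 with triptolide. Members were every non-control probe whose gene name in the deposited files begins with Nduf, Sdha, Sdhb, Sdhc, Sdhd, Uqcr, Cyc1, Cox4i, Cox5, Cox6, Cox7, Cox8 or Atp5. This gave 110 probes of 41012, for 90 gene names, set against 16565 genes with a settled name on the array. Of the 90, 35 encode subunits of complex I, 4 of complex II, 8 of complex III, 15 of complex IV and 16 of complex V. The others are 8 assembly factors and 4 names that are no subunits: Atp5s, Atp5sl, Cox7a2l and the pseudogene Cox6c-ps1. A gene was tested where 3 or more of the 6 arrays showed it well above background, which held for 85 of the 90 genes (104 probes). On no array did Uqcrq, the testis isoforms Cox7b2 and Cox8c, the assembly factor Ndufaf2 or Cox6c-ps1 rise above background. No probe named Cox7a1, the muscle isoform of subunit 7a, was found.

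All 6 samples came from male rats aged 8 weeks with adjuvant arthritis, a joint inflammation provoked with Freund's complete adjuvant. Each rat had 0.1 ml of adjuvant by daily intraperitoneal injection over 18 days, and the tissue was taken from the ankle joints of the hind legs. The arthritis group received saline and the triptolide group received triptolide, a diterpenoid of Tripterygium wilfordii, at 0.4 mg/kg per day, both for 14 days. The sources used here give no strain and do not say whether a sample is 1 animal or a pool, so p-values measure only the spread between these samples, which may be technical. Healthy tissue was not analysed here. Between 59.6% and 65.1% of the non-control spots of an array were well above background, no spot was saturated, and all 85 tested member genes had a value on all 6 arrays. Slide 1 held arthritis 1 to 3 and triptolide 1, and slide 2 held triptolide 2 and 3. In these bulk samples, fewer cells of a type and less RNA per cell cannot be told apart.

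Oxidative phosphorylation passes electrons from NADH through complex I, or from succinate through complex II, to ubiquinone, and on through complex III, cytochrome c and complex IV to oxygen. Complexes I, III and IV pump protons out of the mitochondrial matrix, and complex V, the ATP synthase, uses the returning protons to make ATP. Nuclear genes encode most subunits, and a few subunits of complex IV have a separate isoform in skeletal muscle and heart. Skeletal muscle, rich in mitochondria, lies close to the ankle synovium, a connective tissue of fibroblasts, macrophages, vessels and fat.

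Levels below are log2 intensities relative to the 75th percentile of the array, and a difference is triptolide minus arthritis on that scale. Most of the genes were lower with triptolide by a small amount: 77 of 85, or 90.6%, where 44.1% of all 11815 tested genes were lower. The median difference over the 85 was -0.20, beside 0.03 over all tested genes. Under all 5 scalings 69 of the 77 stayed lower, and Ndufa1, Ndufc2, Sdhb, Uqcrh, Cox5b, Cox6b2, Cox8a and Atp5e were above 0 under at least 1 of them. No member passed the test: limma gave 0 genes an adjusted p under 0.05, with 0% called among all tested genes, and the lowest adjusted p of a member was 0.994. At an unadjusted p under 0.05 limma found 0 members in either direction, where 0.99% of all tested genes were lower and 2.01% higher. The 3 arrays of each group did not overlap for 3 members, all lower with triptolide, where 3.76% of all tested genes did so. None was higher without overlap (4.77% of all tested genes). A difference of at least 2-fold was seen for Cox6a2, which was lower (1.51% of all tested genes), and for Cox8b, which was higher (1.32%).

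Read array by array, the same 85 genes stood apart on 1 sample of each group. Each gene's level was set against its own mean over the 6 arrays, and the median of these centred levels was taken over the members. It was -0.12 on arthritis 1, 0.50 on arthritis 2 and -0.12 on arthritis 3, and -0.00 on triptolide 1, -0.32 on triptolide 2 and 0.00 on triptolide 3. Arthritis 2 lay above the other arrays and triptolide 2 below them, while the remaining 4 arrays of both groups lay close together. Arthritis 2 was the highest of the 6 arrays for 74 of the 85 genes, where 19.4% of all tested genes had their highest level there. For 63 of the 85 the lowest array was triptolide 2, where 25% of all tested genes had their lowest. Under 5 ways of scaling the arrays, 71 genes had their highest level on arthritis 2 in each, and 37 had their lowest on triptolide 2 in each. Over all tested genes the median centred level of arthritis 2 was -0.16, in the direction opposite to the members.

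**Figure D1:**
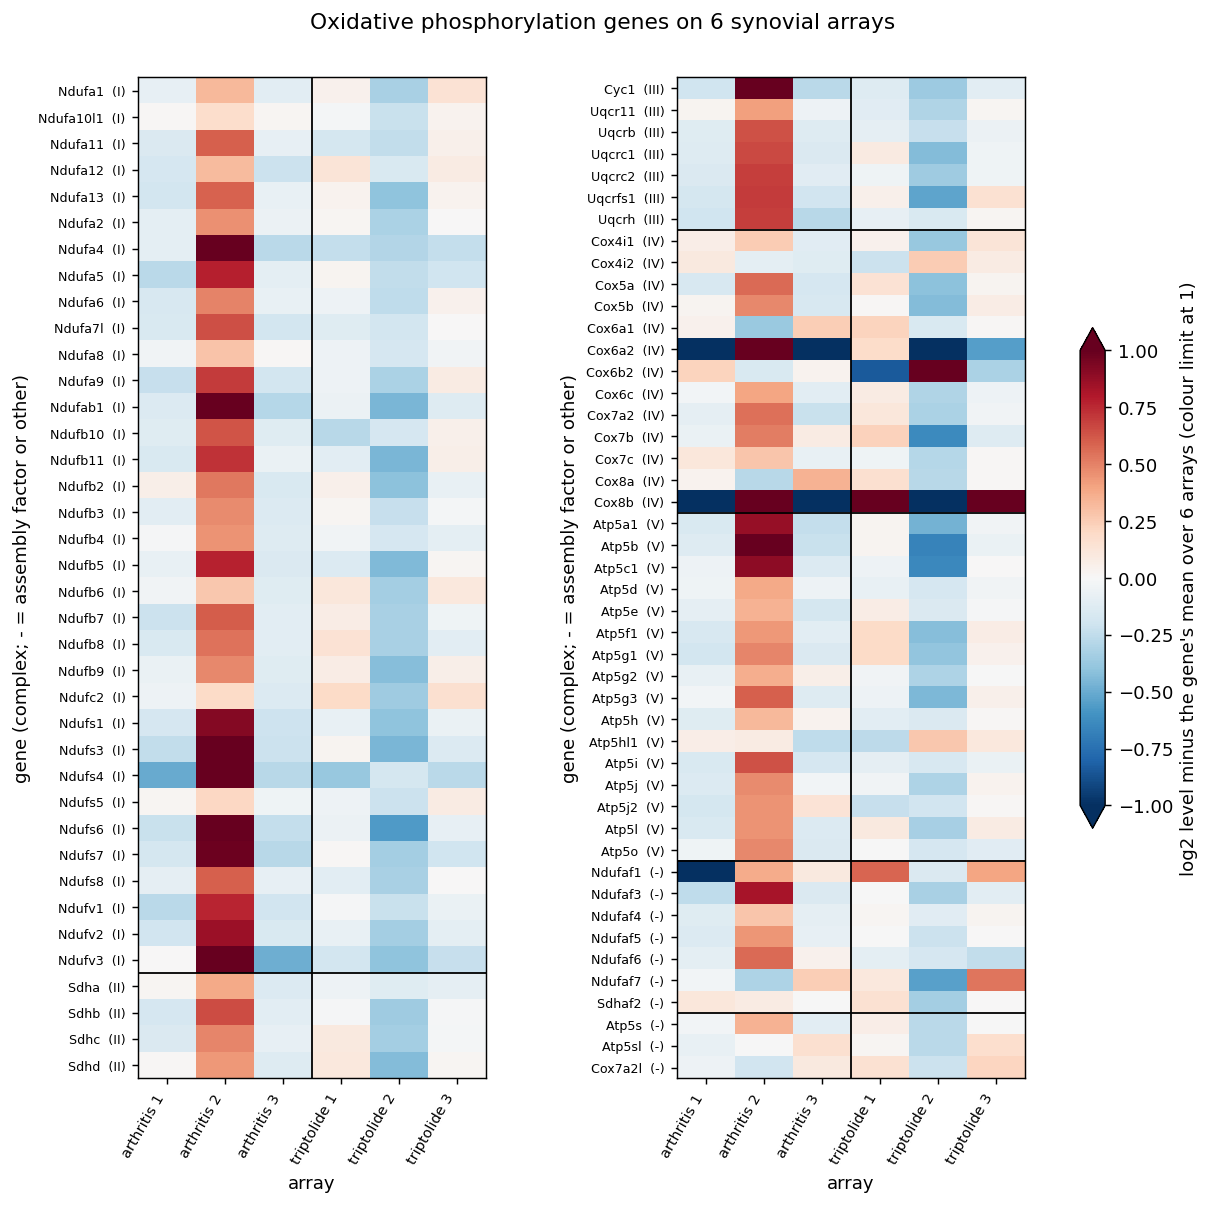
Log2 level of 84 tested genes (rows, by complex in brackets) minus each gene's mean over the 6 arrays (columns), with red above and blue below the mean and the colour limited at 1 in each direction. The column of arthritis 2 is red for nearly all rows and that of triptolide 2 is blue for most, while Cox6a1 and Cox8a are blue on arthritis 2.

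Arthritis 2 was also the array with the highest skeletal muscle markers. The mean log2 level of 32 tested muscle genes (sarcomere proteins, calcium handling and muscle enzymes) was -3.89, 6.92 and -3.93 on arthritis 1 to 3 and 0.86, -2.83 and 0.69 on triptolide 1 to 3. Of the 16 muscle genes common to both fibre types, all 16 were well above background on arthritis 2, but 7 on arthritis 1 and 7 on arthritis 3. On triptolide 1 to 3 the counts were 15, 11 and 16. On both arthritis 1 and arthritis 3, Acta1 (skeletal actin), Ckm (muscle creatine kinase), Ttn (titin), Ryr1, Cacna1s, Trdn, Tcap, Myot and Myod1 were not well above background. The log2 levels of the 16 summed to values from -67.1 to 100.3 in the arthritis group and from -39.96 to 7.35 in the triptolide group. The 11 fast-fibre genes summed to values from -41.2 to 80.8 and from -37.9 to 11.2, and the 7 slow-fibre genes from -31.2 to 42.9 and from -23.7 to 18.1. Triptolide 2, where most members were lowest, had a higher mean of the 32 muscle genes than arthritis 1 and 3. For the fast-fibre genes alone, the mean on triptolide 2 lay between those of arthritis 1 and arthritis 3. Several muscle genes were not well above background on these arrays, so the order of these low means rests partly on background values. On triptolide 2 the markers of Schwann cells and nerve had a mean level of 2.42, against -1.39 to 0.10 on the other 5 arrays, and those of smooth muscle and pericytes 2.89, against -0.28 to 0.80. Endothelial markers had a mean of 1.82 on triptolide 2, against 0.60 to 0.97 on the others, and all 9 were highest there. The 10 fibroblast markers of synovium were well above background on every array, but their mean level was lowest on the same arrays that stood apart for the members, at 1.46 on arthritis 2 and 1.13 on triptolide 2, against 2.04 to 2.54 on the other 4. Macrophage markers had means of 2.59 and 2.55 there, against 2.95 to 3.33, and markers of T and NK cells -1.36 and -1.68, against -0.41 to -0.08. The part of these cell types in the level of the members was not tested. Of the 5 markers of brown fat, Ucp1 and Elovl3 were not well above background on any array, Dio2 was on triptolide 3 alone, Ppargc1a on arthritis 2 alone, and Cidea on all 6.

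Leaving out these arrays changed the result. Without arthritis 2 the median difference of the members was -0.001 and 43 of the 85 were lower, where 53.2% of all tested genes were. Without triptolide 2 it was -0.12, with 66 lower (43.3% of all tested genes). Without both it was 0.11, with 16 of 85 lower (49.6%), and 65 genes changed sign. Arthritis 2 was the highest and triptolide 2 the lowest array for most members, so leaving them out moves the difference upward by construction. Within slide 1 the median was -0.13 and 63 were lower (47.4%). With array weights, which count outlying arrays less, it was 0.06 and 23 were lower (46.3%). With the mean of the muscle markers as a covariate the median was -0.19 with 76 lower. Of these, 13 had an unadjusted p under 0.05 by limma, where 6.64% of all tested genes did in either direction, and none an adjusted one. The covariate had nearly the same mean in both groups, so this fit could hardly move a difference between them. The part of muscle in the difference was therefore not tested by it. No probe of a member passed the adjusted threshold under any of these settings.

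**Figure D2:**
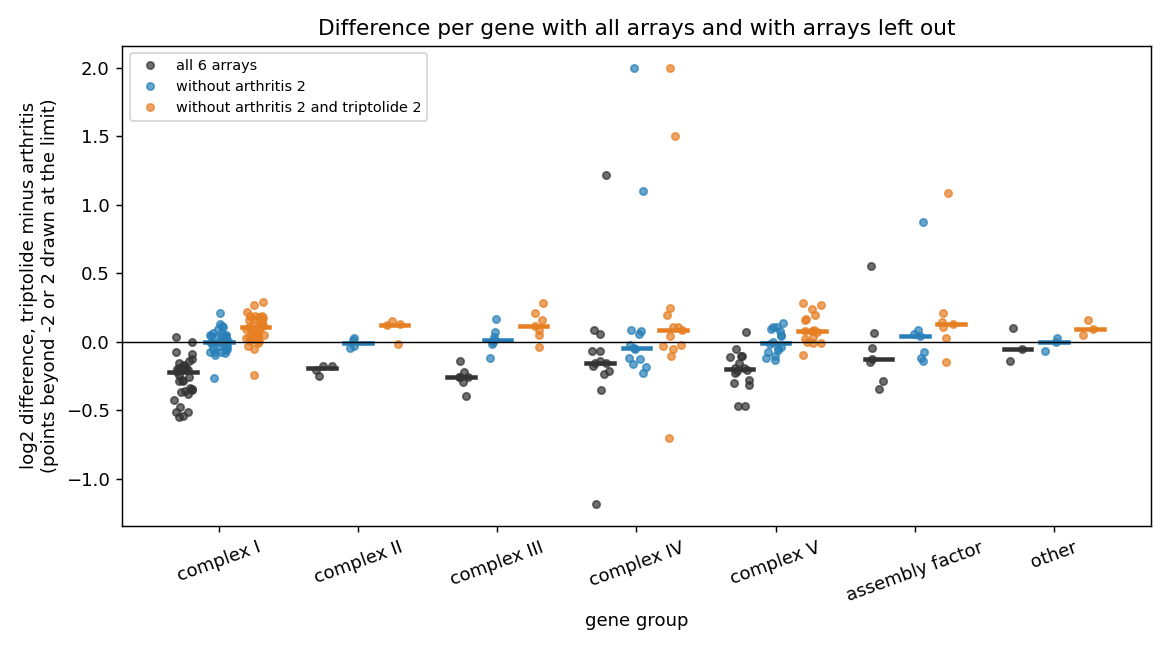
Log2 difference, triptolide minus arthritis, of each tested gene (points) by complex, with the median of each group as a bar, for all 6 arrays, without arthritis 2, and without arthritis 2 and triptolide 2. The medians of complexes I to V lie between -0.26 and -0.16 with all arrays and above 0 without both arrays, and points past the axis limits are drawn at the limit.

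Complex I, which oxidises NADH, held the most members. Of its 35 genes 34 were lower with triptolide, with a median difference of -0.22, and 34 had their highest level on arthritis 2. Ndufa8, an accessory subunit, did not overlap between the groups, with levels of 2.58, 2.90 and 2.62 on arthritis 1 to 3 and 2.56, 2.44 and 2.57 on triptolide 1 to 3, but the gap between the groups was narrow and the difference was -0.17 (SE 0.16).

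The size of the excess on arthritis 2 differed within complex I. Over its 35 genes, each by its brightest probe, the centred level on arthritis 2 ranged from 0.18 for Ndufa10l1 to 1.61 for Ndufs4. Ndufs4, an accessory subunit whose loss causes complex I deficiency, had the widest range of complex I, with levels of -3.53, -1.42 and -3.30 on arthritis 1 to 3 and -3.41, -3.19 and -3.29 on triptolide 1 to 3. Only arthritis 2 stood apart there, and the other 5 arrays lay together. Ndufa4, now assigned to complex IV by many authors, also stood apart on arthritis 2, at 5.19, 6.42 and 5.01 on arthritis 1 to 3 and 5.04, 4.99 and 5.05 on triptolide 1 to 3. At the other end, Ndufs5 and Ndufa10l1 were nearly flat, the latter at 4.60, 4.76 and 4.61 on arthritis 1 to 3 and 4.57, 4.36 and 4.62 on triptolide 1 to 3. Ndufa12, the one complex I gene higher with triptolide, differed by 0.04 (SE 0.20).

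Complex II, or succinate dehydrogenase, is also an enzyme of the tricarboxylic acid cycle, and all 4 of its genes were lower with triptolide. Sdha, the flavoprotein, differed by -0.17 (SE 0.18), Sdhb, the iron-sulphur subunit, by -0.25 (SE 0.26), and the membrane anchors Sdhc and Sdhd by -0.18 (SE 0.23) and -0.21 (SE 0.23). Sdhb had levels of 4.02, 4.84 and 4.08 on arthritis 1 to 3 and 4.18, 3.83 and 4.18 on triptolide 1 to 3. Its arthritis 2 value was the highest and its triptolide 2 value the lowest, and the remaining arrays of both groups overlapped. With normexp background correction its difference was above 0, at 0.12, and at 0.10 with normexp and quantile normalization, and arthritis 3 was then its lowest array.

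All 7 tested genes of complex III, which passes electrons from ubiquinol to cytochrome c, were lower with triptolide, with a median of -0.26. Cyc1, the cytochrome c1 subunit, had levels of 1.68, 2.95 and 1.61 on arthritis 1 to 3 and 1.75, 1.51 and 1.77 on triptolide 1 to 3. Arthritis 2 alone was high, with a difference of -0.40 (SE 0.38) over all arrays and 0.04 without arthritis 2. The core protein gene Uqcrc2 differed by -0.29 (SE 0.27), and the small subunit gene Uqcr11 by -0.26 (SE 0.19). The hinge protein gene Uqcrh and the binding protein gene Uqcrb, at -0.14 (SE 0.28) and -0.26 (SE 0.24), were likewise highest on arthritis 2. For Uqcrb this holds for its brightest probe, while another, dimmer probe well above background on all arrays was highest on arthritis 3. The difference of Uqcrh was above 0, at 0.045 and 0.044, under the same pair of normexp settings.

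In complex V the median difference was -0.20 and 15 of 16 genes were lower. The gamma subunit gene Atp5c1, part of the rotor that drives catalysis, had levels of 4.17, 5.11 and 4.09 on arthritis 1 to 3 and 4.17, 3.58 and 4.22 on triptolide 1 to 3. Arthritis 2 was high and triptolide 2 low, and the difference was -0.47 (SE 0.34) with all arrays and 0.07 without both. The 5 genes of the catalytic F1 head and its stalk, Atp5a1, Atp5b, Atp5c1, Atp5d and Atp5e, had a median centred level of 0.87 on arthritis 2 and -0.47 on triptolide 2, and the 3 genes for subunit c of the membrane ring 0.49 and -0.40. The remaining 8 had 0.45 and -0.18, in a division made after the values were seen. On arthritis 2 the 5 ranged from 0.34 to 1.05 and the remaining 8 from 0.08 to 0.64. Atp5d and Atp5e, at 0.38 and 0.34, lay below the median of the remaining 8. Among the other members named by the rule, Atp5g2 (a subunit c gene), Atp5j2 and Atp5i differed by -0.23 (SE 0.18), -0.28 (SE 0.20) and -0.22 (SE 0.25). Atp5hl1, a name given to a gene like that of subunit d, was the 1 member of complex V above 0, at 0.07 (SE 0.20), and was below 0 under both settings with normexp background correction (-0.08 and -0.03).

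Complex IV, cytochrome c oxidase, was the most mixed. Of its 13 tested genes 10 were lower with triptolide, with a median of -0.16, and 9 had their highest level on arthritis 2. Cox5b and Cox7b differed by -0.23 (SE 0.24) and -0.35 (SE 0.28), and Cox7c by -0.21 (SE 0.17). The brightest Cox7c probe was highest on arthritis 2. Its other probe, nearly as bright, was highest on arthritis 3 and lower on arthritis 2 than on arthritis 1. Cox5b was above 0, at 0.24, with normexp background correction and at 0.23 with normexp and quantile normalization. Cox4i1, the common form of the regulatory subunit 4, had levels of 4.71, 4.89 and 4.52 on arthritis 1 to 3 and 4.69, 4.26 and 4.77 on triptolide 1 to 3. Cox4i2, the form linked to low oxygen and found in lung and vessel cells, had levels of 0.99, 0.79 and 0.77 on arthritis 1 to 3 and 0.68, 1.15 and 0.98 on triptolide 1 to 3. Triptolide 2 was the lowest array for Cox4i1 and the highest for Cox4i2, and the groups overlapped for both.

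The muscle isoforms made the largest excursions of all members. They replace Cox6a1 and Cox8a in the oxidase of skeletal muscle and heart. The array probes for Cox6a2 (rn4, minus strand, chr1:187464932-187464991) and Cox8b (rn4, minus strand, chr1:201057360-201057419) are shown because the next values rest on them; each shares no run longer than 5 and 6 bases, respectively, with the probe of its partner. The transcript region each probe covers was not analysed here.
Cox6a2 probe: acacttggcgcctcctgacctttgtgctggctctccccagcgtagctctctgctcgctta
Cox8b probe: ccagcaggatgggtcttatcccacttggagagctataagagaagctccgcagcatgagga

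Cox6a2 had levels of -0.49, 6.40 and -0.41 on arthritis 1 to 3 and 1.42, -0.16 and 0.69 on triptolide 1 to 3. Arthritis 2 stood far above the rest, triptolide 1 and 3 lay above arthritis 1 and 3, and the groups overlapped, with a difference of -1.18 (SE 1.86) over all arrays and 1.10 without arthritis 2. A second probe for Cox6a2 was measured at -2.98, 4.15 and -2.81 on arthritis 1 to 3 and -1.11, -3.90 and -1.64 on triptolide 1 to 3, in a like order at the top, and differed by -1.67 (SE 2.00). Cox8b had levels of -5.37, 6.64 and -5.08 on arthritis 1 to 3 and 2.55, -3.95 and 1.23 on triptolide 1 to 3. It was well above background on 1 of 3 arthritis arrays, arthritis 2, and on all 3 triptolide arrays. Its difference was 1.22 (SE 3.53), but with normexp background correction it was -0.12. No difference is given without arthritis 2, since neither of the other arthritis arrays was well above background. These 2 isoforms, like the muscle markers, were highest on arthritis 2 and higher on triptolide 1 and 3 than on arthritis 1 and 3.

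The partners, the common forms, did not share the peak on arthritis 2. Cox6a1 had levels of 8.27, 7.86 and 8.48 on arthritis 1 to 3 and 8.45, 8.08 and 8.24 on triptolide 1 to 3, and Cox8a had levels of 6.99, 6.67 and 7.29 on arthritis 1 to 3 and 7.11, 6.67 and 6.96 on triptolide 1 to 3. Arthritis 2 was the lowest array for both, though for Cox8a triptolide 2 was level with it at 6.67. No other member had its lowest level on arthritis 2, where 39.5% of all tested genes had theirs. On the other arrays the partners did not run opposite to the muscle isoforms: on triptolide 1 Cox6a2, Cox8b, Cox6a1 and Cox8a each had its second highest level. Under each of the 5 scalings Cox6a1 stayed lowest on arthritis 2. Cox8a did so except with median scaling, under which triptolide 2 was lowest. The groups overlapped for both, with differences of 0.06 (SE 0.21) and -0.07 (SE 0.22), the latter above 0 with normexp or quantile normalization. Cox7a2, the common form of subunit 7a, had levels of 5.16, 5.80 and 5.03 on arthritis 1 to 3 and 5.36, 4.93 and 5.21 on triptolide 1 to 3, with arthritis 2 highest. Cox7a2l, a related protein that joins complexes III and IV, had levels of 4.09, 3.95 and 4.24 on arthritis 1 to 3 and 4.29, 3.92 and 4.35 on triptolide 1 to 3 and did not share that peak.

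**Figure D3:**
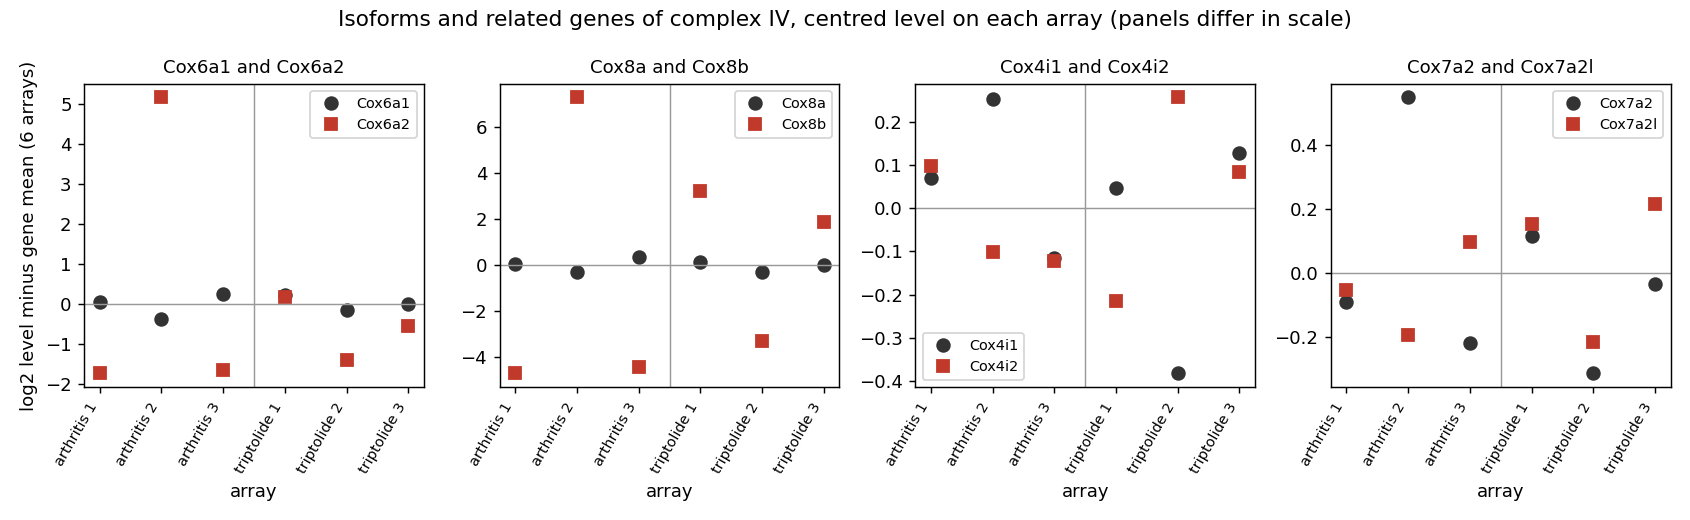
Log2 level minus the gene's mean over the 6 arrays (y axis, scale differs by panel) for 4 pairs of complex IV isoforms or related genes on each array (x axis), 1 point per gene and array. Cox6a2 and Cox8b peak on arthritis 2, where Cox6a1 and Cox8a lie below their means, and Cox8b is above its mean on triptolide 1 and 3.

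The 7 tested assembly factors had a median difference of -0.12, with 5 lower. Ndufaf6, needed for complex I assembly, was measured at 0.98, 1.64 and 1.12 on arthritis 1 to 3 and 0.97, 0.91 and 0.83 on triptolide 1 to 3. All triptolide arrays lay below all arthritis arrays by a very small margin, and the difference was -0.34 (SE 0.21). Ndufaf1, another complex I factor, was measured at -2.69, -1.03 and -1.30 on arthritis 1 to 3 and -0.82, -1.55 and -1.01 on triptolide 1 to 3. Arthritis 1 was far below the rest, and the groups overlapped with a difference of 0.55 (SE 0.47). Ndufaf7, a methyltransferase of complex I assembly, was also above 0, at 0.06 (SE 0.31).

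Several genes were measured by more than 1 probe, 15 in all. Probes of Ndufb3, Uqcrfs1 and Ndufaf4 disagreed in sign. Tested probes of Uqcrb, Cox7c, Ndufc2 and Sdhaf2 agreed in sign but differed in their highest array. The brightest probe of Uqcrfs1, the Rieske iron-sulphur protein of complex III, differed by -0.22 (SE 0.32) and its other probe by 0.11 (SE 0.23). For Ndufb3 the brightest probe differed by -0.16 (SE 0.21) and the other, which lies on the opposite strand and showed no peak on arthritis 2, by 0.22 (SE 0.18). A pair of probes for the subunit c gene Atp5g3 is shown because the sequences nearly coincide: over 48 shared bases 5 differ, marked by capitals.
Atp5g3 probe with a position in rn4 (chr3:56512525-56512584, minus strand): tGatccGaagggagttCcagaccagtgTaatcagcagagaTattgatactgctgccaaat
Atp5g3 probe with no position in the files: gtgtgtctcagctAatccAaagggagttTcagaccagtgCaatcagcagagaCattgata

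The first of these was measured at 5.63, 6.26 and 5.53 on arthritis 1 to 3 and 5.60, 5.21 and 5.71 on triptolide 1 to 3 and the second at 2.12, 2.62 and 1.81 on arthritis 1 to 3 and 1.88, 1.64 and 2.06 on triptolide 1 to 3. Both put arthritis 2 highest and triptolide 2 lowest, with differences of -0.30 (SE 0.25) and -0.32 (SE 0.25). Uqcrb, by contrast, has a probe never above background that shares a run of 40 bases with another Uqcrb probe on the opposite strand.

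Genes that feed or serve the respiratory chain were set beside it. Enzymes of the tricarboxylic acid cycle and pyruvate dehydrogenase, 26 tested, had a median difference of -0.27 with 24 lower, and medians of 0.52 on arthritis 2 and -0.37 on triptolide 2, close to those of the subunits. Electron carriers and coupling proteins had 18 of 23 lower with a median of -0.16. Of the 15 genes of fatty acid oxidation 11 were lower, with a median of -0.17. Assembly factors in a wider list had 20 of 29 lower with a median of -0.08, mitochondrial ribosomal proteins 55 of 72 with -0.07, and regulators of mitochondrial biogenesis 9 of 17 with -0.02. In all 6 lists limma gave 0 genes an adjusted p under 0.05. At an unadjusted p under 0.05, 1 gene was lower, Tmem70, an assembly factor of the ATP synthase, and 1 was higher, Ppard, a nuclear receptor of fatty acid metabolism. Among all tested genes 0.99% were lower and 2.01% higher at that threshold, so these counts are no larger than the background, and the values of both genes follow as a description.

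Tmem70 had levels of -1.20, -0.62 and -0.99 on arthritis 1 to 3 and -1.44, -1.81 and -1.37 on triptolide 1 to 3. All triptolide arrays lay below all arthritis arrays, with a difference of -0.60 (SE 0.22), an unadjusted p of 0.031 and an adjusted p of 0.994 by limma. Ppard had levels of -3.55, -4.27 and -4.22 on arthritis 1 to 3 and -3.25, -2.92 and -3.21 on triptolide 1 to 3, with all triptolide arrays above all arthritis arrays. Its difference was 0.89 (SE 0.24), with the same adjusted p, and 0.15 with normexp background correction. Fh, the cycle enzyme fumarase, and Pdp1, the phosphatase that activates pyruvate dehydrogenase, differed by -0.41 (SE 0.21) and -0.33 (SE 0.21). Leaving arthritis 2 out moved these to -0.23 and -0.14. Ucp3, an uncoupling protein of muscle, had levels of -2.88, 1.01 and -3.95 on arthritis 1 to 3 and -4.20, -4.32 and -3.77 on triptolide 1 to 3, not well above background on triptolide 2. Arthritis 2 alone was high, and the difference was -2.16 (SE 1.22) with all arrays and -0.68 without it.

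The 2 main carriers that exchange ADP and ATP across the inner membrane split on arthritis 2 like the complex IV isoforms. Slc25a4, the form of muscle and heart, had levels of 5.30, 7.84 and 5.34 on arthritis 1 to 3 and 5.42, 5.21 and 5.35 on triptolide 1 to 3. Slc25a5, the widespread form, had levels of 5.41, 4.74 and 5.44 on arthritis 1 to 3 and 5.60, 4.83 and 5.37 on triptolide 1 to 3. Arthritis 2 was the highest array for the first and the lowest for the second, though under median scaling and with normexp background correction triptolide 2 was lowest for Slc25a5. Among all tested genes 19.4% were highest and 39.5% lowest on arthritis 2. Ckmt2, the mitochondrial creatine kinase of sarcomeric muscle, had levels of -4.63, 6.09 and -6.40 on arthritis 1 to 3 and 2.90, -4.13 and 0.70 on triptolide 1 to 3, highest on arthritis 2 and next on triptolide 1. These 3 genes, and the regulators named next, were singled out after their values were seen. Of the regulators, the coactivator Ppargc1a, its partner Ppara and the muscle regulator Perm1 were well above background only on arthritis 2, whereas Nrf1, Gabpa and Esrra, factors that bind promoters of respiratory genes, differed by -0.05 (SE 0.18), 0.06 (SE 0.14) and 0.13 (SE 0.14).

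**Figure D4:**
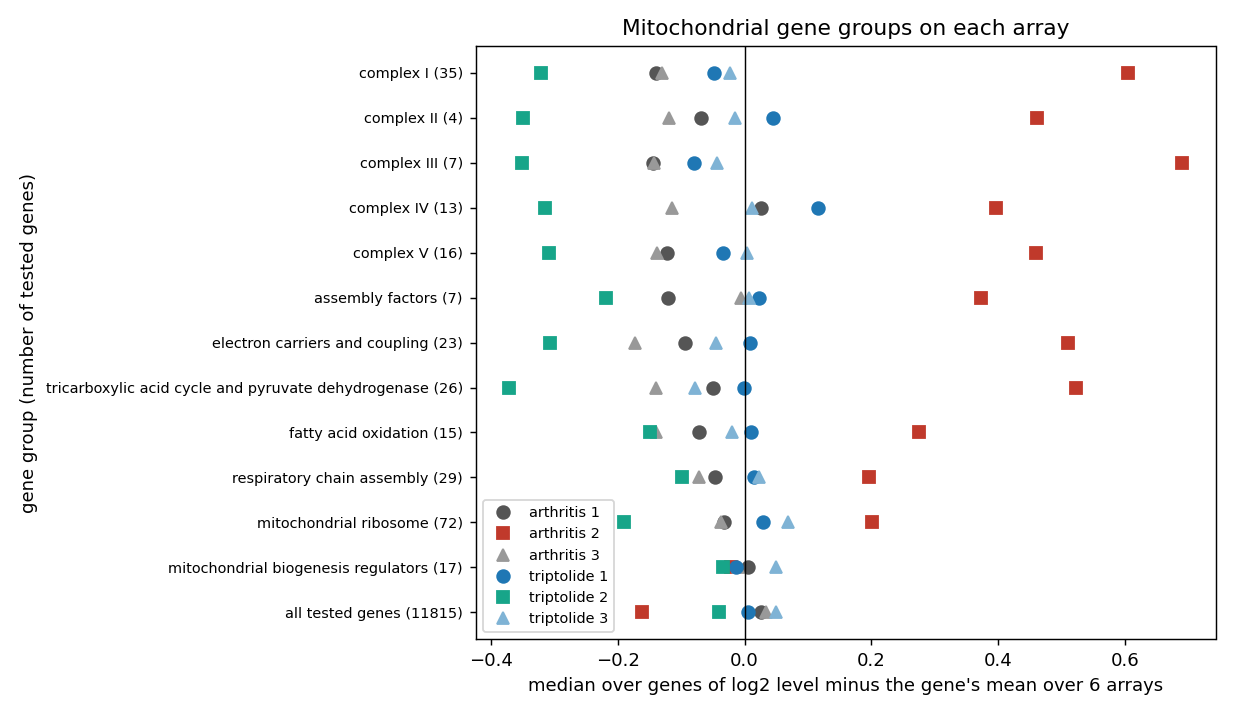
Median over genes of the log2 level minus each gene's mean over the 6 arrays (x axis) for the complexes, the assembly factors, 6 lists of related mitochondrial genes and all tested genes (y axis, number of tested genes in brackets), 1 point per array. Arthritis 2 is right of the other arrays for complexes I to V, the carriers, the cycle enzymes and fatty acid oxidation, and triptolide 2 is at the left, whereas for all tested genes arthritis 2 is at the left, at -0.16.

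Promoters of the members were searched for motifs of factors known to act on respiratory or muscle genes. RefSeq promoters of GRCr8 (250 bases before to 50 after the start) were found for 65 subunit genes, and 5 short motifs were searched on both strands. The NRF1 core TGCGCA lay in 30.8% of the 65 and in 7.68% of all 27457 promoters, and the GABP and ETS core CCGGAAG in 30.8% and 9.22%. The ERR core AAGGTCA lay in 16.9% and 4.37%, and the YY1 core AAGATGG in 24.6% and 7.3%. The myogenic E-box CAGCTG lay in 16.9%, near the 15.1% of all promoters. The median GC content of the subunit promoters was 56.0%, against 52.3% for all. A match is a string of letters and shows no binding, and the shares were not adjusted for GC content.

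The 250 bases before the start are printed for Cox6a2 and Cox8b, whose E-boxes are in capitals, and for Sdhd and Cox5b, whose NRF1 and GABP cores are in capitals (RefSeq, GRCr8, read on the strand of the gene).
Cox6a2: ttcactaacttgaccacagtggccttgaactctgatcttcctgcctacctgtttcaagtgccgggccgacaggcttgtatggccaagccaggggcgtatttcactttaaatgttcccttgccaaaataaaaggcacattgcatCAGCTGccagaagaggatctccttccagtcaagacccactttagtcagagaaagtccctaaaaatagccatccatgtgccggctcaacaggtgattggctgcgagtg
Cox8b: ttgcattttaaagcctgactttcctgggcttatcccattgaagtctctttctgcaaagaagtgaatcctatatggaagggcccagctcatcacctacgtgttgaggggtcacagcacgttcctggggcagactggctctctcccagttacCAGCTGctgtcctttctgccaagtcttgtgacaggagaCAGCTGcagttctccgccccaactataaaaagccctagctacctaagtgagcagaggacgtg
Sdhd: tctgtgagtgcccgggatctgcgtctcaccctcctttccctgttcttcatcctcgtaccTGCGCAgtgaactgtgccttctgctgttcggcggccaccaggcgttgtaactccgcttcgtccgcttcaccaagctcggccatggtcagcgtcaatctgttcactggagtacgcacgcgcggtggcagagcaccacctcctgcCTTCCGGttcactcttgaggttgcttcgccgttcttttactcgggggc
Cox5b: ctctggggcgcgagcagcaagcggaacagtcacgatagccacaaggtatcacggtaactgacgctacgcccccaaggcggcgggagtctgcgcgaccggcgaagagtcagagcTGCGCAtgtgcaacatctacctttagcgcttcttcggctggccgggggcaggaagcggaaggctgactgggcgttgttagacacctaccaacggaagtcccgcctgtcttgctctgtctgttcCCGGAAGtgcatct

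Cox6a2 carries 1 E-box and Cox8b carries 2, which begin 100 and 62 bases before the start. Neither holds any of the other 4 motifs in this window. The E-box was not confined to muscle isoforms: it lay in 11 of the 65 subunit promoters, among them that of Cox4i1, 80 bases before the start. Sdhd holds the NRF1 core 191 and the GABP core 48 bases before the start, and Cox5b holds them at 137 and 14. Other members carried fewer kinds of motif. In the same window Ndufs8, Cox8a and Uqcrh held the GABP core alone, and Atp5b, Ndufs4 and Cox7c held none of the 5.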

How the data were processed

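Total RNA (0.5 ug) was labelled with Cy3 and hybridised to 1-colour Agilent arrays, per the labels' protocols. The deposited scanner files hold processed intensity, background-subtracted within each array and not normalized between arrays, written by Agilent Feature Extraction 10.7.3.1 per the file headers (9.1 per the submitters' processing notes); probe positions are rn4. A deposited table of log2 values covers 167 rows, of which 160 match a probe and 0 a member, and was not used.

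Outlier spots were left out, log2 intensity minus the array's 75th percentile was taken, and spots of a probe were averaged. The brightest probe stood for a gene. All 25777 probes well above background on at least 3 arrays were fitted with limma 3.58.1 (R 4.3.3), triptolide minus arthritis, with Benjamini-Hochberg adjustment, after a test on simulated data. Named genes were fixed isoforms, extremes of p, level and range within each complex, non-overlapping, higher and undetected members, and 2 genes per related list; others are marked. Members and lists were chosen with earlier results of these data known. Precision is limited by the 3 arrays in each group. Protein sequences were not analysed here. The values of 1 member are not reported here.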

Additional observations from a re-analysis of the deposited data

How the results depend on the processing

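The count of member probes past the adjusted threshold was 0 under every setting run. The median difference of the members stayed below 0, from -0.24 to -0.13, under other background corrections, scalings and filters, with slide as a block, with the muscle covariate, and with members taken by current symbol. The number lower then ranged from 63 to 79. The SD of the array medians within a group, 0.28, was larger than these medians, so it does not separate 1 setting from another. With 1 array left out, the median ranged from -0.31 to -0.001 and the number lower from 43 to 79, the lowest of these without arthritis 2. Without the second array of both groups the median was 0.11 and 16 genes were lower, a shift whose direction follows from which arrays were left out. With array weights (0.20 for arthritis 2 and 0.24 for triptolide 2) they were 0.06 and 23. With a replicate block the median was -0.20 and 77 were lower. The correlations of same-numbered samples were -0.16, -0.13 and 9e-04, which show no pairing by number but cannot exclude one. The block changed no call. Quantile normalization left 44 of 85 genes lowest on triptolide 2, and normexp with quantile normalization 43. The deposited log2 table gave no value. The values with slide as a block rest on slide 1, since slide 2 held triptolide arrays alone, and so on 1 triptolide array.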
